A study of Mus musculus with 2 samples.

Results

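Fatty acid synthesis and cholesterol synthesis are a pair of pathways that both start from cytosolic acetyl-CoA. The genes described here are 35 mouse genes of these pathways, chosen by name from the 31054 gene rows of the count tables, and all 35 had a row. They were followed across cell classes, between cycling and resting cells and between tumours, with 16 genes in the fatty acid branch, 15 in the sterol branch and 4 regulators. The data were single-cell RNA counts from breast tumours of C57BL/6 inAd-Chaser-mTmG mice. These carry Adiponectin-rtTA with a TRE-Cre and a Rosa26 mT/mG reporter, so that a doxycycline pulse turns Adiponectin-expressing adipocytes and the cells that later derive from them from tdTomato to EGFP. Cells were taken by the tumour fibroblast isolation and sorted as EGFP+/tdTomato-, so both groups share the reporter, the pulse and the sort. One library came from a Met-1 transplant, per the sample label, and one from a PyMT tumour that arose in mice crossed to PyMT mice. The design text of the series names EO771 as the implanted line, and the sample label is followed here. With 1 library per group there was no replicate and no test: the exact 95% intervals in parentheses are for counting error alone and say nothing of how mice vary.

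In the fatty acid branch, citrate or acetate supplies acetyl-CoA, a carboxylase and a synthase build palmitate with NADPH, and elongases and desaturases then reshape the chain before it enters glycerolipids. In the sterol branch, the mevalonate arm makes isoprenoid units that are joined to squalene, closed to lanosterol and trimmed to cholesterol. Both branches are known to answer to the SREBP transcription factors, which INSIG proteins hold in the endoplasmic reticulum when sterols are plentiful, and fatty acid synthesis is a known activity of mammary luminal cells and adipocytes.

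SREBP sites in sterol genes are known to work beside CCAAT boxes, which bind NF-Y. The RefSeq promoter windows (build GRCm38.p6, 250 bases before to 50 bases after a start, 300 bases in all) were therefore searched on both strands for CCAAT, for the sterol element TCACNCCAC and for the E-box CACGTG. Windows were found for 27 of the 35 genes, and none was used for Scd1, Scd2, Fads1, Dgat1, Dgat2, Fdps, Sqle and Fdft1. A CCAAT box stood in a window of 12 of 12 sterol genes, 4 of 4 regulators and 7 of 11 fatty acid genes (63.6%), against 11096 of 27025 genes in all (41.1%). The 4 fatty acid genes without one were Acaca, Agpat2, Elovl6 and Fads2. CACGTG stood in 5 of the 27 genes (Dhcr7, Elovl5, Hsd17b7, Insig1 and Sc5d; 18.5%), against 8.09% of all genes, and TCACNCCAC stood in Hmgcs1 alone, against 1.44% of all genes. Such matches are letters in a window and do not show that a factor binds there. The sterol promoters shown belong to genes that were above their resting level in every cycling comparison described further on (Hmgcs1, Idi1, Cyp51), and Srebf1 and Me1 because they marked luminal cells in both tumours. Capitals mark a CCAAT box (ATTGG when it lies on the other strand) or TCACNCCAC, and each sequence runs 5′ to 3′ on the gene's strand. Hmgcs1 (chr13:119690101-119690400, plus strand) held 4 CCAAT boxes and the sterol element, Idi1 (chr13:8885356-8885655, plus strand) 2 CCAAT boxes, and Cyp51 (chr5:4104648-4104947, minus strand) 1. The third of 3 Srebf1 windows (chr11:60210422-60210721, minus strand) held 1 CCAAT box, and the first of 2 Me1 windows (chr9:86695865-86696164, minus strand) held 0, while the second Me1 window held 1.
Hmgcs1: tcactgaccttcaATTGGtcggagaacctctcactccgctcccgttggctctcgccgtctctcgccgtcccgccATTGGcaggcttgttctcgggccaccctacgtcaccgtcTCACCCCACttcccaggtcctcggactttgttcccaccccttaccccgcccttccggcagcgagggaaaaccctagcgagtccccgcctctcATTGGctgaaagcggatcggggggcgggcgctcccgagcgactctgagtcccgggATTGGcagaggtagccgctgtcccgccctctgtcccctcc
Idi1: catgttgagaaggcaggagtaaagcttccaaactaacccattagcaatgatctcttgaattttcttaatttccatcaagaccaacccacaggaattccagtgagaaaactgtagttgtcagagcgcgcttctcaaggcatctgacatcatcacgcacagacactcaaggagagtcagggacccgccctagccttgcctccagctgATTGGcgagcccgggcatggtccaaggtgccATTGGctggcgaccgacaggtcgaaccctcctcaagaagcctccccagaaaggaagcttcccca
Cyp51: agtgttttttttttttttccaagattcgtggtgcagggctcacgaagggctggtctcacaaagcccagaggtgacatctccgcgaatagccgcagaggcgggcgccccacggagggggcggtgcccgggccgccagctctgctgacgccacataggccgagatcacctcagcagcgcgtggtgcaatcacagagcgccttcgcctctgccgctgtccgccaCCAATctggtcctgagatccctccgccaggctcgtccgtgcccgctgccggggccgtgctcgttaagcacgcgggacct
Srebf1: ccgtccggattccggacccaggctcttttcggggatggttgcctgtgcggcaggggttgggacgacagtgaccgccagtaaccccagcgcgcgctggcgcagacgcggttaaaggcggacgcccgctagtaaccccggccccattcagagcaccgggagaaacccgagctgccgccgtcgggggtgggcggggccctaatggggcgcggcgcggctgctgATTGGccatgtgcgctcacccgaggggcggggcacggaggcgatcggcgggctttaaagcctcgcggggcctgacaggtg
Me1: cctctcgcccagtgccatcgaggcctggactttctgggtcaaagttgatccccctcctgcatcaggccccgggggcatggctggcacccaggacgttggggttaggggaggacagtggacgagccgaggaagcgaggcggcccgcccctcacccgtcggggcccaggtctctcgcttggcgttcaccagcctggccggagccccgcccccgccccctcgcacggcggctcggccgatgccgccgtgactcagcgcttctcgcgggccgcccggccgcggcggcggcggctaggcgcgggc

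Of 2451 Met-1 and 619 PyMT barcodes, 2112 and 589 were kept, with 19768692 and 4293854 UMIs and a median of 7684 and 3470 UMIs per cell. The libraries shared 0 barcodes. EGFP was counted in 96.3% of Met-1 cells and 80.5% of PyMT cells. Cells were placed in classes by the UMIs of fixed marker genes, 1809 Met-1 cells (85.7%) and 529 PyMT cells (89.8%), and each class name stands for the markers a cell met. Macrophages or monocytes numbered 849 in the Met-1 transplant and 192 in the PyMT tumour, T cells 239 and 34, B cells 206 and 26, neutrophils 38 and 175, and luminal epithelial cells 36 and 89. The Met-1 transplant also held 213 fibroblasts, 110 mural cells and 109 NK cells, against 11, 0 and 1 in the PyMT tumour. Just 1 Met-1 cell and 0 PyMT cells met the adipocyte markers, so the reporter's target cell is not described here. The sort was for EGFP and not for epithelium, and why luminal cells are among the sorted cells was not tested. Together the 35 genes gave 14514 Met-1 UMIs (0.0734% of all) and 5974 PyMT UMIs (0.139%).

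Luminal epithelial cells had the highest sums of both branches among the classes of at least 20 cells in each tumour. The fatty acid branch summed to 1376 counts per 1000000 UMIs (CPM; 1293 to 1464) in Met-1 luminal cells, against 335 CPM in all other Met-1 cells, a ratio of 4.11 (3.84 to 4.40). The PyMT luminal cells summed to 1424 CPM (1363 to 1487), against 442 CPM in the other PyMT cells, a ratio of 3.22 (3.004 to 3.46). The sterol branch summed to 599 CPM in Met-1 luminal cells against 212 CPM in the other cells (ratio 2.83, 2.56 to 3.12), and to 491 CPM in PyMT luminal cells against 293 CPM (ratio 1.67, 1.51 to 1.85). The 8 cycling Met-1 luminal cells, as defined further on, held 313 of the 439 sterol UMIs of their class, and a single one of these cells held 182. Without that cell the Met-1 luminal sterol sum was 383 CPM and the ratio 1.81 (1.59 to 2.05). The fatty acid sum leaned less on one cell, with 1319 CPM in Met-1 and 1326 in PyMT luminal cells once the cell with the most such UMIs was left out. Scd1 alone gave much of it: without Scd1 the branch summed to 773 CPM in Met-1 luminal cells against 298 CPM in the other cells (ratio 2.59), and to 742 CPM in PyMT luminal cells against 404 CPM (ratio 1.83).

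**Figure D1:**
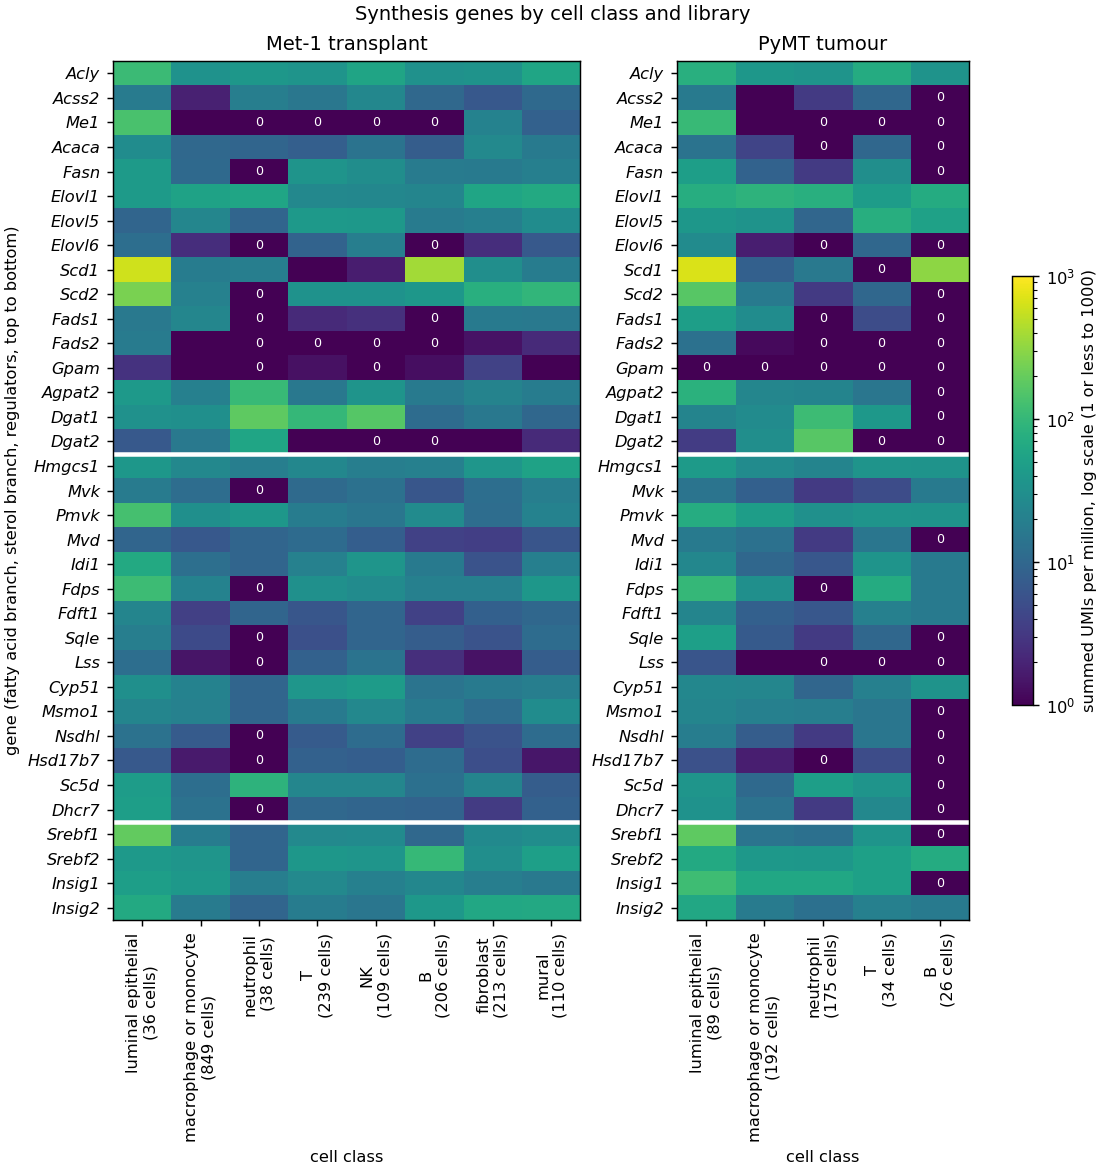
Heat map of the summed CPM of each of the 35 genes (rows, fatty acid branch, sterol branch and regulators from top to bottom) by cell class (columns) in Met-1 and in PyMT, on a log colour scale; a mark stands for 0 UMIs. The luminal epithelial columns are bright for Scd1 (604 and 682 CPM), Me1 (139 and 106 CPM) and Srebf1 (193 and 182 CPM), and Scd1 is the one of these that is also bright in B cells (379 and 312 CPM).

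Luminal cells were chosen by their markers, so a high luminal and a low macrophage marker sum follow from the class rule. Its 8 luminal markers were all detected and summed to 16127 CPM in the Met-1 class and 19722 CPM in the PyMT class, while the 10 macrophage markers summed to 380 and 264 CPM there. Of the 5 adipocyte markers, Adipoq, Cidec, Lep and Adrb3 had 0 UMIs in both luminal classes. The cells differed in depth: Met-1 luminal cells had 506 to 107951 UMIs each, and the deepest 5 of the 36 cells gave 53.9% of the class's UMIs. PyMT luminal cells had 632 to 66120 UMIs each, with a median of 17053 against 3470 over all kept PyMT cells, and the deepest 5 gave 13.7%.

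A gene was called higher or lower when (CPM + 10) differed at least 2-fold and at least 1 side had 50 UMIs. In Met-1 luminal cells 11 of 33 genes tested were higher and 0 lower than in the other cells, where 7.12% of 11743 genes were higher and 14.4% lower. In PyMT luminal cells 7 of 23 were higher and 1 lower, where 12.7% of 6262 genes were higher and 17.0% lower. The median log2 ratio of the genes tested was 0.64 in the Met-1 tumour against -0.06 over all genes, and 0.57 in the PyMT tumour against 0.12. By branch, 4 of 14 fatty acid genes, 6 of 15 sterol genes and 1 of 4 regulators were higher in Met-1 luminal cells. For PyMT luminal cells it was 4 of 11 fatty acid genes, 1 of 8 sterol genes and 2 of 4 regulators. The genes higher in the luminal cells of both tumours were 4: Me1, Scd1, Scd2 and Srebf1.

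Me1, the cytosolic malic enzyme that supplies NADPH for chain building, had 139 CPM in Met-1 luminal cells against 5.78 CPM in the other cells (ratio 24.1, 18.2 to 31.8). The PyMT values were 106 CPM in luminal cells against 8.81 CPM (ratio 12.02, 7.84 to 19.1). Its UMIs came from 21 of 36 Met-1 and 51 of 89 PyMT luminal cells. Me1 was close to silent in leukocytes: 0 UMIs in Met-1 T, NK and B cells, which allows up to 1.35, 2.62 and 3.84 CPM, and 5 UMIs in 849 Met-1 macrophages. Fibroblasts of the Met-1 transplant had 21.3 CPM.

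Scd1 and Scd2 encode stearoyl-CoA desaturases, which turn saturated into monounsaturated fatty acids. Scd1 had 604 CPM in Met-1 luminal cells against 36.3 CPM in the other cells (ratio 16.6, 14.7 to 18.8). In PyMT luminal cells it had 682 CPM against 37.3 CPM (ratio 18.3, 14.9 to 22.5). Most luminal cells carried it: 26 of 36 Met-1 cells (72.2%) and 73 of 89 PyMT cells (82.0%), with a median cell at 427 and 280 CPM. After thinning each cell to 1000 UMIs, Scd1 was seen in 31.0% of 29 Met-1 and 34.5% of 84 PyMT luminal cells, against 1.33% of Met-1 macrophages and 0.420% of Met-1 T cells. Scd2 had 250 CPM in Met-1 luminal cells against 42.4 CPM (ratio 5.89, 4.99 to 6.92), and 168 CPM in PyMT luminal cells against 47.9 CPM (ratio 3.51, 2.84 to 4.37). In stromal cells of the Met-1 transplant Scd2 had 93.6 CPM in mural cells and 79.0 CPM in fibroblasts, and Scd1 had 18.4 and 30.5 CPM there.

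Srebf1 encodes SREBP-1, the SREBP best known for driving fatty acid genes. It had 193 CPM in Met-1 luminal cells against 23.7 CPM in the other cells (ratio 8.13, 6.68 to 9.84), and 182 CPM in PyMT luminal cells against 26.1 CPM (ratio 6.99, 5.38 to 9.17). Srebf2, whose product SREBP-2 is best known for driving sterol genes, differed little: 41.0 CPM in Met-1 luminal cells against 41.0 CPM, and 66.0 CPM in PyMT luminal cells against 45.4 CPM. The INSIG genes, which encode the proteins that retain SREBPs, were unlike each other. Insig2 was higher in PyMT luminal cells (63.2 CPM against 22.9 CPM, ratio 2.76), with 65.5 CPM in Met-1 luminal cells, and Insig1 had 47.8 CPM against 30.0 CPM in Met-1 and 118 CPM against 73.3 CPM in PyMT luminal cells. In the Met-1 transplant Insig2 was also higher in fibroblasts (62.9 CPM against 26.4 CPM), where 12.8% of genes were higher, and had 65.2 CPM in mural cells, where 7.88% of genes and 0 of the 33 tested were higher.

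The chain-building genes at the head of the branch moved less. Acly, which makes acetyl-CoA from citrate, was higher in Met-1 luminal cells (111 CPM against 38.9 CPM, ratio 2.85), and had 79.0 CPM in PyMT luminal cells. Fasn, the fatty acid synthase, had 43.7 CPM against 19.0 CPM in Met-1 and 47.4 CPM against 22.2 CPM in PyMT luminal cells, short of the 2-fold limit on the scale used. Acaca, the acetyl-CoA carboxylase, had 28.7 CPM in Met-1 and 13.7 in PyMT luminal cells, and Acss2, which makes acetyl-CoA from acetate, 17.8 and 17.2 CPM. No elongase was called. Elovl1 had 43.7 CPM in Met-1 luminal cells against 45.8 CPM, and 74.2 CPM in PyMT luminal cells against 80.3 CPM. Elovl5 had 9.56 CPM in Met-1 luminal cells against 26.6 CPM (ratio 0.359, 0.144 to 0.745), and 39.2 CPM in PyMT luminal cells against 40.2 CPM. Elovl6, which had too few UMIs to be tested in PyMT, had 12.3 CPM in Met-1 luminal cells against 5.15 CPM and 28.2 CPM in PyMT luminal cells against 10.9 CPM (ratio 2.58, 1.58 to 4.26). Fads2, the delta-6 desaturase, had few UMIs: 13 of its 28 in the Met-1 transplant were in luminal cells (17.8 CPM against 0.788 CPM), and 19 of 26 in the PyMT tumour (13.1 CPM against 2.47 CPM).

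The 6 sterol genes higher in Met-1 luminal cells leaned to different degrees on single cells. Pmvk, phosphomevalonate kinase, had 130 CPM against 23.9 CPM (ratio 5.43), Fdps, farnesyl diphosphate synthase, 115 CPM against 23.9 CPM (ratio 4.80), and Idi1, the isopentenyl diphosphate isomerase, 66.9 CPM against 15.4 CPM (ratio 4.35). The top cell of each gene held 32 of the 49 Idi1 UMIs, 52 of the 84 Fdps UMIs and 37 of the 95 Pmvk UMIs. The squalene synthase gene Fdft1 (23.2 CPM against 5.73 CPM) had 10 of 17 UMIs in 1 cell. Dhcr7 and Sc5d, which act at the last steps, had 47.8 CPM against 9.67 CPM and 45.1 CPM against 17.2 CPM, with 12 of 35 and 9 of 33 UMIs in the top cell. Without its top cell the log2 difference was 1.54 for Pmvk and 1.19 for Dhcr7, still past 2-fold, and 0.79 for Fdps, 0.76 for Sc5d, 0.51 for Idi1 and 0.39 for Fdft1. After thinning each cell to 1000 UMIs, the log2 difference of Idi1 was -1.10 against 1.60 without thinning, and that of Fdft1 was -0.67 against 1.08. In the PyMT tumour, where the class held more cells, the one sterol gene called higher in luminal cells was Sqle, squalene epoxidase, with 49.5 CPM against 11.6 CPM (ratio 4.26, 2.78 to 6.64). Fdps had 98.3 CPM there and Pmvk 72.8 CPM.

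The other 8 sterol genes were called in neither luminal class. Hmgcs1, which makes HMG-CoA, had 38.2 CPM in Met-1 and 42.6 in PyMT luminal cells, the kinase gene Mvk 17.8 and 14.4 CPM, and the decarboxylase gene Mvd 9.56 and 17.2 CPM. Of the genes that act after squalene, Lss, lanosterol synthase, had 12.3 CPM in Met-1 and 6.19 in PyMT luminal cells. Cyp51 and Msmo1, which remove methyl groups from lanosterol, had 31.4 and 23.2 CPM in Met-1 luminal cells and 24.7 and 23.4 CPM in PyMT luminal cells. Nsdhl and Hsd17b7, which act between them and cholesterol, had 13.7 and 6.83 CPM in Met-1 luminal cells and 18.6 and 5.50 CPM in PyMT luminal cells.

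**Figure D2:**
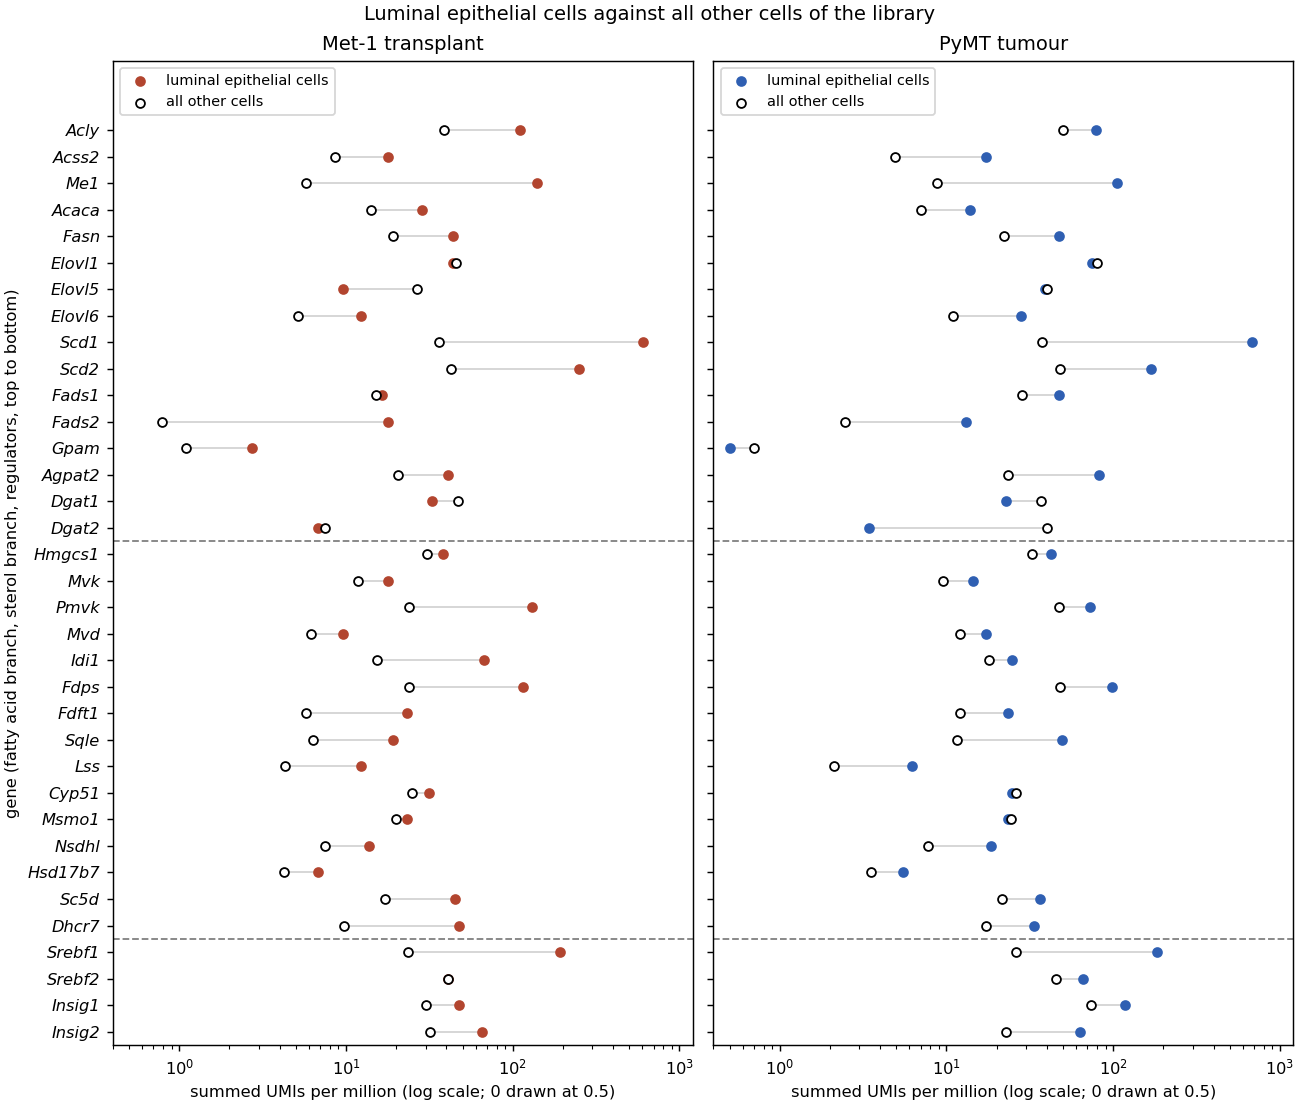
Summed CPM (log axis, 0 UMIs drawn at 0.5) of each gene in luminal epithelial cells (filled) and in all other kept cells of the same library (open), for Met-1 (left) and PyMT (right). Wide gaps in both panels belong to Scd1, Me1, Scd2 and Srebf1, and Dgat2 is the gene called lower in PyMT luminal cells (3.44 CPM against 40.2 CPM).

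Of the 4 glycerolipid assembly genes, Dgat1 and Dgat2 had their highest levels in neutrophils in both tumours, with Dgat1 of Met-1 NK cells inside the neutrophil interval. Dgat1 and Dgat2 encode the enzymes that close triglyceride synthesis, and both were higher in the neutrophils of both tumours. Dgat1 had 182 CPM (109 to 284) in Met-1 neutrophils against 45.8 CPM in the other cells, and 113 CPM (78.5 to 157) in PyMT neutrophils against 25.9 CPM. Dgat2 had 57.3 CPM (21.0 to 125) in Met-1 neutrophils against 7.22 CPM, from 6 UMIs in 5 cells, and 168 CPM (125 to 220) in PyMT neutrophils against 16.8 CPM, from 41 of 175 cells. These were the 2 genes higher in the neutrophils of both tumours, out of 4 higher in Met-1, where 6.79% of genes were higher, and 2 of 27 in PyMT, a share near the 8.79% of all genes. The other 2 in Met-1 were Agpat2, which adds a fatty acid to lysophosphatidic acid (105 CPM), and Sc5d (86.0 CPM). Their PyMT neutrophil values were 22.6 and 48.3 CPM.

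Dgat1 was also higher in Met-1 NK cells (160 CPM, 138 to 185, against 39.5 CPM, a background of 3.53% of genes higher) and T cells (99.3 CPM, 86.7 to 113, against 39.8 CPM, a background of 3.11%). It was lower in B cells (11.5 CPM against 47.9 CPM), fibroblasts (15.8 CPM against 53.3 CPM) and mural cells (9.98 CPM against 49.1 CPM) of that tumour, where 19.2%, 10.9% and 10.4% of genes were lower. Dgat2 was otherwise a myeloid gene here: it was higher in Met-1 macrophages (16.3 CPM against 2.26 CPM; 7.78% of genes were higher), had 30.2 CPM in PyMT macrophages, and was lower in PyMT luminal cells (3.44 CPM against 40.2 CPM). Agpat2 was higher in PyMT luminal cells (81.8 CPM against 23.2 CPM, ratio 3.52). Gpam, which starts glycerolipid assembly in mitochondria, reached 3.88 CPM at most, in Met-1 fibroblasts, and had 2 UMIs in all PyMT cells.

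B cells had the next highest Scd1 level after luminal cells in both tumours. Scd1 had 379 CPM (337 to 425) in Met-1 B cells against 44.1 CPM in the other cells (ratio 8.60, 7.51 to 9.83), from 140 of 206 cells (68.0%). In PyMT B cells it had 312 CPM (185 to 494), from 11 of 26 cells (42.3%), against 255 CPM in the other cells, which include the luminal cells (ratio 1.22, 0.723 to 1.94), and was not called. In T cells it had 1 UMI in 239 Met-1 cells and 0 UMIs in 34 PyMT cells, and in Met-1 NK cells 2 UMIs. After thinning to 1000 UMIs, Scd1 was in 31.4% of 204 Met-1 and 23.1% of 26 PyMT B cells. The 8 luminal markers summed to 35.9 CPM in Met-1 B cells and 139 CPM in PyMT B cells, far under their luminal sums. The class rule itself limits this sum. Me1 had 0 UMIs in the B cells of both tumours, a loose limit in PyMT, where the class held 57619 UMIs in all. Srebf2 was the other gene higher in Met-1 B cells (102 CPM, 81.2 to 128, against 38.4 CPM, ratio 2.66), where 3.84% of genes were higher, while Srebf1 was lower there (10.2 CPM against 30.8 CPM). Without Scd1 the fatty acid branch of B cells summed to 178 CPM in the Met-1 and 156 CPM in the PyMT tumour.

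Macrophages and monocytes, the largest class, had the lowest fatty acid sum of the Met-1 classes of at least 20 cells, 268 CPM (257 to 280). They also had the lowest of such PyMT classes, 314 CPM (288 to 342), but PyMT T cells were not separable from them (322 CPM, 248 to 412). This rank leaned on Scd1. Without Scd1 the macrophages of the Met-1 transplant summed to 250 CPM, above its B cells (178 CPM). Those of the PyMT tumour then summed to 305 CPM (280 to 333), against 156 CPM (71.4 to 297) for its B cells. Me1, Scd1 and Scd2 were lower in the macrophages of both tumours than in the other cells, which include the luminal cells. They were the 3 of 33 genes lower in Met-1 macrophages, under the 13.0% of all genes. In PyMT macrophages 10 genes were lower, where 17.9% of all genes were, and 0 were higher, where 9.62% were. Scd1 had 18.2 CPM in Met-1 macrophages against 80.6 CPM, and 8.29 CPM in PyMT macrophages against 417 CPM. Fads1, the delta-5 desaturase of polyunsaturated fatty acids, had 24.01 CPM in Met-1 and 29.0 in PyMT macrophages, 16.4 and 47.4 CPM in luminal cells, 2.25 CPM in Met-1 T cells, and 0 UMIs in the neutrophils and B cells of both tumours. It was lower in T cells of both tumours, as 1 of 3 genes lower in Met-1 T cells (background 16.7%) and 1 of 7 in PyMT T cells (background 26.3%), where 0 of 27 were higher against 5.49% of genes. In Met-1 NK cells 3 of 33 genes were lower, fewer than the 15.6% of all genes. Fads1 was one of them, with 3 UMIs, and its log2 difference there was 0.029 after thinning to 1000 UMIs per cell, against -1.04 without. In neutrophils 11 of 33 genes were lower in Met-1 and 12 of 27 in PyMT, against 31.7% and 35.8% of all genes, and in PyMT B cells 16 of 27 were lower and 0 higher, against 44.5% and 7.63%. In these classes many genes had 0 or 1 UMI, which does not exclude the level of the other cells, so their lower calls are not read. A class sum alone does not tell fewer cells with a transcript from less of it per cell, and shares of cells were not compared for these lower genes.

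**Figure D3:**
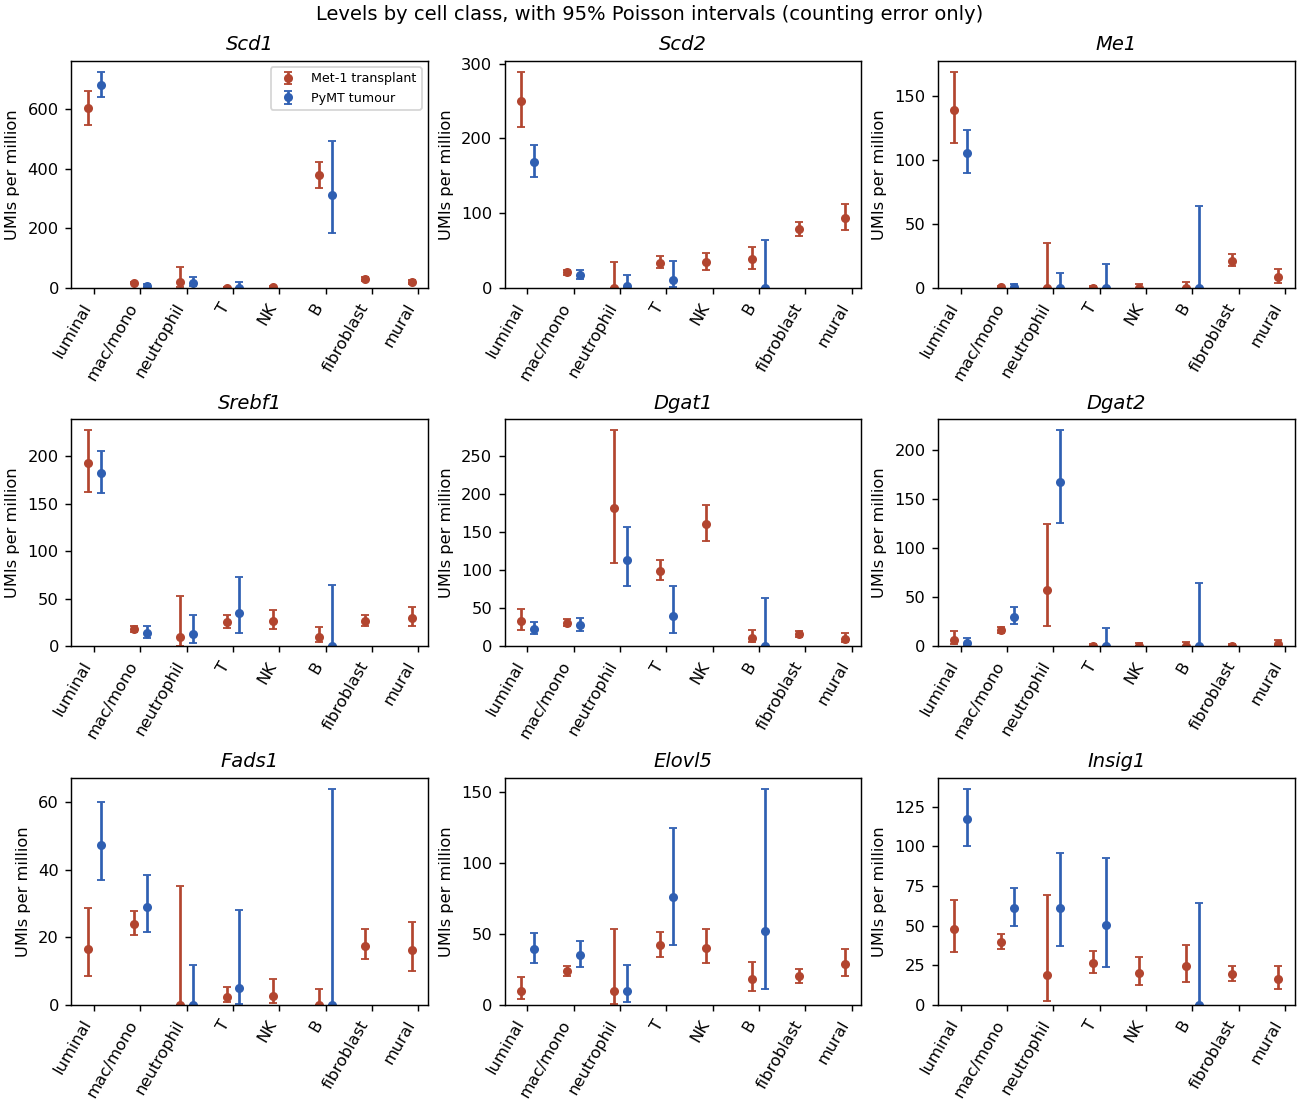
Summed CPM of 9 genes (panels) in each cell class, Met-1 beside PyMT, with exact 95% Poisson intervals that cover counting error only. Scd1 is high in luminal epithelial and B cells, Me1 and Srebf1 in luminal cells, Dgat1 in neutrophils (182 and 113 CPM) and Met-1 NK cells (160 CPM), and Dgat2 in neutrophils (57.3 and 168 CPM).

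The highest class of a gene was mostly the same in both tumours, and the order of the lower classes was not compared. Among 5 classes measured in both, 21 of the 27 genes with at least 50 UMIs in each library had the same highest class, which was luminal epithelial for 16, neutrophil for 3, T for 1 and B for 1. For 8 of the 21 (Me1, Scd1, Scd2, Dgat1, Dgat2, Pmvk, Srebf1 and Insig2) the ratio of the highest class to the next had an interval above 1 in both tumours. For 7 it did in one tumour, and for 6 the interval included 1 in both. The same count was not made over all genes, so 21 of 27 is not read as a trait of these genes.

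Other genes of the pathways, which are not among the 35, were not uniformly high in luminal cells. Of the fatty acid genes, 3 of 19 tested were higher and 0 lower in Met-1 luminal cells, and 5 of 14 were higher and 0 lower in PyMT luminal cells. Thrsp, a lipogenic regulator of liver and mammary gland, led both lists, with 441 CPM against 0.420 CPM in Met-1 and 216 CPM against 23.2 CPM in PyMT luminal cells. The elongation gene Tecr had 270 CPM against 94.4 CPM in Met-1 luminal cells, and the acyl-CoA synthetase gene Acsl4 135 CPM against 33.1 CPM in PyMT luminal cells. The lowest of this list were Acsl5 and Agpat3 in Met-1 luminal cells (20.5 CPM against 44.0 CPM, and 27.3 CPM against 54.2 CPM) and the NADPH-supplying G6pdx and Pgd in PyMT luminal cells (14.4 CPM against 30.6 CPM, and 68.0 CPM against 118 CPM). Of the other sterol synthesis genes 0 were higher and 1 lower in each tumour, of 8 tested in Met-1 and 6 in PyMT. The lower one was Lbr, a nuclear envelope protein with sterol reductase activity (8.19 CPM against 43.9 CPM in Met-1, 15.1 CPM against 41.6 CPM in PyMT), and Erg28 had 53.3 CPM against 40.4 CPM and 77.0 CPM against 44.0 CPM.

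A list of SREBP processing genes and other SREBP targets, which also holds Mlx, a transcription factor outside both, gave 0 calls. Of this list 9 genes were tested in Met-1 and 5 in PyMT luminal cells. The highest of these were Mlx (64.2 CPM against 27.5 CPM) and Scap (27.3 CPM against 19.7 CPM) in Met-1, and Mbtps1 (48.8 CPM against 23.2 CPM) and Tmem97 (38.5 CPM against 22.2 CPM) in PyMT. A chosen list of sterol efflux genes and LXR targets went the other way. Of the genes tested in this list, 5 of 8 were lower in Met-1 luminal cells and 6 of 7 in PyMT luminal cells, and 0 were higher. The list leaves out Srebf1 and Scd1, which were higher in the luminal cells of both tumours, so it does not stand for all LXR targets. Apoe, the lipoprotein that carries cholesterol out of macrophages, had 149 CPM against 12308 CPM in Met-1 and 488 CPM against 18464 CPM in PyMT luminal cells, and the cholesterol transporter Abcg1 8.19 CPM against 84.8 CPM and 8.25 CPM against 99.0 CPM. The other cells of both libraries are mostly leukocytes, and the part of those cells in the direction of these lists was not tested. Immediate early genes, which dissociation is known to raise, were higher in luminal cells for 5 of 15 in Met-1, and 4 were higher and 2 lower in PyMT. Their part in the luminal results was not tested.

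In cycling cells the sterol branch stood higher in each comparison made on at least 20 cells a side, while the fatty acid branch was higher in 1 of them, Met-1 T cells. A cell was called cycling with at least 2 UMIs over 20 genes of the G2 and M phases and resting with 0. There were 5 comparisons with at least 20 cells on each side. They held 137 cycling and 585 resting Met-1 macrophages, 46 and 136 Met-1 T cells, 37 and 52 Met-1 NK cells, 33 and 121 PyMT macrophages, and 23 and 40 PyMT luminal cells. Genes of the S phase, which were not used for the call, were higher for 14 of 15 in cycling Met-1 macrophages, where 1.88% of genes were higher, and for 8 of 8 in cycling Met-1 NK cells, where 5.86% were.

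The summed sterol branch was higher on the cycling side of all 5 comparisons, with intervals that leave out 1. It was 250 CPM in cycling against 178 CPM in resting Met-1 macrophages (ratio 1.40, 1.25 to 1.58), and 332 CPM against 202 CPM in Met-1 T cells (ratio 1.64, 1.35 to 1.998). In Met-1 NK cells it was 330 CPM in cycling against 178 CPM in resting cells (ratio 1.85, 1.41 to 2.44). In PyMT macrophages it was 345 CPM against 196 CPM (ratio 1.76, 1.40 to 2.21), and in PyMT luminal cells 712 CPM against 282 CPM (ratio 2.53, 2.06 to 3.12). Leaving out the cycling cell with the most sterol UMIs gave ratios between 1.22 (Met-1 macrophages, 1.08 to 1.38) and 2.22 (PyMT luminal cells, 1.80 to 2.75).

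The fatty acid branch gave no shared direction. It was 253 CPM in cycling against 273 CPM in resting Met-1 macrophages (ratio 0.927, 0.829 to 1.03), 383 CPM against 275 CPM in Met-1 T cells (1.39, 1.17 to 1.66) and 410 CPM against 498 CPM in Met-1 NK cells (0.824, 0.679 to 0.999). In PyMT macrophages it was 310 CPM against 315 CPM (0.981, 0.791 to 1.21), and in PyMT luminal cells 1161 CPM against 1601 CPM (0.725, 0.651 to 0.807). Scd1 set the luminal value, with 351 CPM in cycling against 888 CPM in resting cells (ratio 0.395, 0.331 to 0.469). Without it the branch was 810 CPM in cycling against 713 CPM in resting PyMT luminal cells (1.14, 0.982 to 1.32).

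Gene by gene, 10 of 15 sterol genes had a cycling level above the resting one in all 5 comparisons (Hmgcs1, Pmvk, Idi1, Fdps, Sqle, Cyp51, Msmo1, Nsdhl, Hsd17b7 and Dhcr7), as did 1 of 16 fatty acid genes (Fasn) and 0 of 4 regulators. Among genes with at least 50 UMIs summed over these comparisons it was 9 of 13 sterol genes (69.2%) and 1 of 14 fatty acid genes (7.14%), against 11.5% of 9854 genes. With at least 200 UMIs it was 6 of 6 sterol genes and 1 of 9 fatty acid genes, against 13.7% of 6090 genes. Single genes were mostly too sparse for a call. Those called were 1 higher, Fdps, and 1 lower, Scd1, both in PyMT luminal cells, against a background of 3.59% of genes higher and 4.05% lower. In Met-1 macrophages 0 of 21 were called, where 0.292% of genes were lower. In Met-1 T cells (2.46% of genes higher and 2.08% lower), Met-1 NK cells (1.08% lower) and PyMT macrophages (1.98% higher and 1.49% lower) at most 2 of the 35 had the UMIs to be tested.

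Fdps and Idi1 make the isoprenoid units and showed it most plainly. Fdps had 29.7 CPM in cycling against 18.0 CPM in resting Met-1 macrophages, 59.98 CPM against 18.4 CPM in T cells and 35.1 CPM against 13.4 CPM in NK cells of that tumour. In the PyMT tumour it had 56.7 CPM in cycling against 19.4 CPM in resting macrophages and 168 CPM against 36.9 CPM in luminal cells. For Idi1 the pairs were 20.01 CPM in cycling against 10.9 CPM in resting Met-1 macrophages, 36.9 against 10.6 CPM in T cells and 54.6 against 17.8 CPM in NK cells. In the PyMT tumour Idi1 had 26.0 CPM in cycling against 4.56 CPM in resting macrophages and 53.8 CPM against 6.92 CPM in luminal cells. Every pair of both genes had its cycling side higher, by 0.50 to 1.93 on the log2 (CPM + 10) scale for Fdps and 0.52 to 1.91 for Idi1.

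Other sterol genes varied in which class had the wider gap. Hmgcs1 had 42.3 CPM in cycling against 18.5 CPM in resting Met-1 macrophages, 32.3 against 18.4 CPM in Met-1 T cells and 64.2 against 34.6 CPM in PyMT luminal cells. Cyp51 had 56.9 CPM in cycling against 29.0 CPM in resting Met-1 T cells, 40.2 against 18.2 CPM in PyMT macrophages and 46.9 against 6.92 CPM in PyMT luminal cells. In PyMT luminal cells Sqle had 67.7 CPM in cycling against 18.5 CPM in resting cells, and Msmo1 46.9 CPM against 4.62 CPM. Fasn, the one fatty acid gene with the same sign throughout, had 13.7 CPM in cycling against 10.3 CPM in resting Met-1 macrophages, 55.4 against 22.2 CPM in Met-1 T cells, and 31.2 against 29.0 CPM in Met-1 NK cells. In the PyMT tumour Fasn had 14.2 CPM in cycling against 4.56 CPM in resting macrophages and 85.0 CPM against 23.1 CPM in luminal cells. The regulators gave no shared direction: their sum in cycling over resting cells was 2.09 (1.33 to 3.38) in Met-1 NK cells and between 0.933 and 1.30 in the other 4 comparisons, with intervals that include 1. In PyMT luminal cells Srebf1 had 137 CPM in cycling against 254 CPM in resting cells (0.540, 0.399 to 0.728), and Insig1 182 CPM against 118 CPM (1.55, 1.10 to 2.21). In Met-1 NK cells Insig1 had 33.2 CPM in cycling against 2.23 CPM in resting cells, from 17 UMIs against 1 (14.9, 2.33 to 621).

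**Figure D4:**
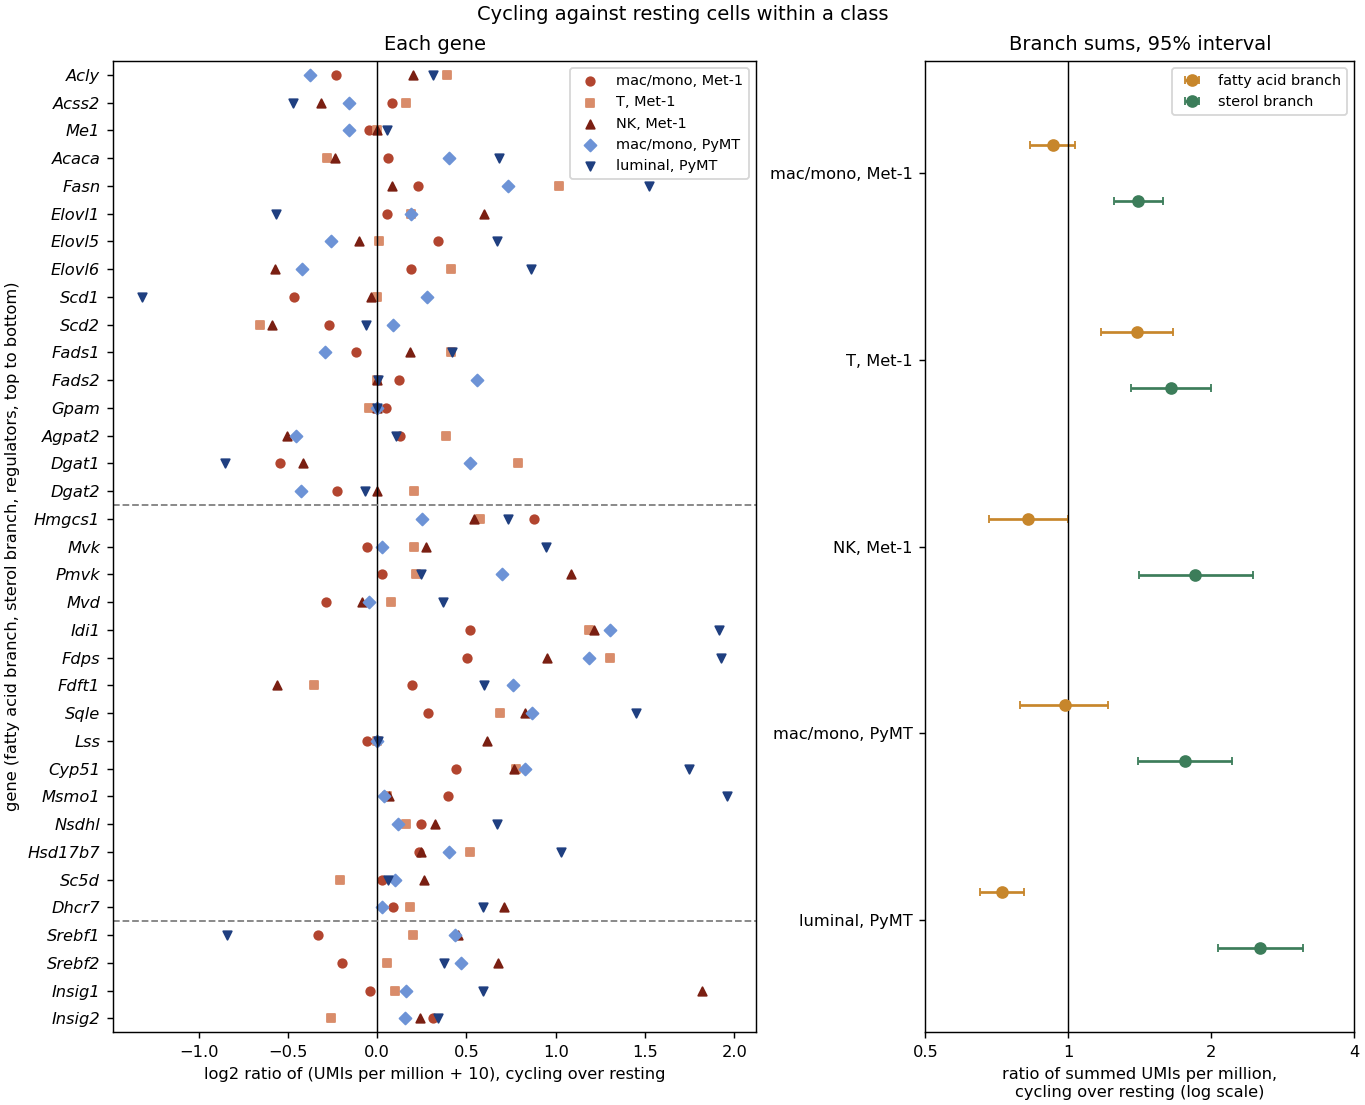
Left, log2 ratio of (CPM + 10) in cycling over resting cells for each gene in 5 comparisons (4 leukocyte comparisons and PyMT luminal cells), by branch. Right, ratio of the summed branch with exact 95% intervals for counting error; all 5 sterol ratios lie above 1 (1.40 to 2.53) and the fatty acid ratios lie between 0.725 and 1.39.

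Cycling cells were deeper, with medians of 10653 UMIs in cycling against 6924 in resting Met-1 macrophages, 14094.5 against 7043 in T cells, 13751 against 8514.5 in NK cells, 10957 against 6296 in PyMT macrophages and 23601 against 9212 in PyMT luminal cells. Among cells of at least 5000 UMIs the log2 sterol ratios were 0.48, 0.70, 0.87, 0.81 and 1.31 in the same order, next to 0.49, 0.72, 0.89, 0.82 and 1.34 over all cells. Thinned to 1000 UMIs per cell, the ratio of Met-1 T cells was 0.11 and that of NK cells 0.34. When cells were called cycling by the S phase genes, it was 0.14 in Met-1 macrophages and 0.27 in T cells. Groups with fewer cells were not uniform: the sterol sum was 309 CPM in 19 cycling against 200 CPM in 75 resting mural cells (1.54, 1.18 to 2.01) and 147 CPM in 13 cycling against 175 CPM in 161 resting fibroblasts (0.842, 0.576 to 1.19). In 8 cycling against 24 resting Met-1 luminal cells it was 609 CPM against 354 CPM (1.72, 1.28 to 2.36), and the fatty acid sum was 1175 CPM against 1911 CPM. A single cell held 182 of the 313 sterol UMIs of those 8 cycling cells. The sterol ratio of this class leans on that cell, and its value without the cell was not computed. In 10 cycling against 17 resting PyMT T cells the sterol sum was 468 CPM against 166 CPM (2.82, 1.44 to 6.06).

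Between the tumours, luminal cells had near-equal sums of the 35 genes and differed in a few of them. The sum was 2323 CPM in Met-1 luminal cells and 2344 CPM in PyMT luminal cells (ratio 0.991, 0.934 to 1.05). The fatty acid branch was 1376 CPM in Met-1 against 1424 CPM in PyMT (0.967), and the sterol branch 599 CPM against 491 CPM (1.22, 1.08 to 1.38). Without the 1 Met-1 cell that held 182 sterol UMIs, the Met-1 sterol sum was 383 CPM. These sums mix cycling and resting cells. In cycling luminal cells the sterol sum was 609 CPM in Met-1, with that cell, against 712 CPM in PyMT, and in resting ones 354 against 282 CPM. The fatty acid sum was 1175 against 1161 CPM in cycling and 1911 against 1601 CPM in resting luminal cells. The part of cycling in the differences between tumours was not tested. Of 18 genes tested, 0 were higher and 4 lower in Met-1, where 5.96% of 4059 genes were higher and 6.95% lower.

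The 4 lower genes were Elovl5, Fads1, Sqle and Insig1. The count was 0 in place of 4 with a second class limited to 1 in 10, after thinning, with 50 CPM added and with 50 UMIs required on both sides. The both-sides rule could not test these genes, which had 7, 12, 14 and 35 UMIs in Met-1 luminal cells. After thinning, the luminal cells of either tumour held too few UMIs for genes at these levels to reach 50. No conclusion on the 4 genes is drawn from these 2 settings. Elovl5, an elongase of polyunsaturated chains, had 9.56 CPM in Met-1 luminal cells against 39.2 CPM in PyMT luminal cells (ratio 0.244, 0.0939 to 0.536), and Fads1 16.4 CPM against 47.4 CPM (0.346, 0.170 to 0.643). Sqle had 19.1 CPM against 49.5 CPM (0.386, 0.201 to 0.691), and Insig1 47.8 CPM against 118 CPM (0.407, 0.274 to 0.588). Next in order were Agpat2 (41.0 CPM in Met-1 against 81.8 CPM in PyMT) and Elovl1 (43.7 CPM against 74.2 CPM), neither called. At the other end, and uncalled, were Pmvk (130 CPM in Met-1 against 72.8 CPM in PyMT; 1.78, 1.34 to 2.37), Scd2 (250 against 168 CPM; 1.48, 1.22 to 1.80), Acly (111 against 79.0 CPM), Me1 (139 against 106 CPM), Sc5d (45.1 against 36.4 CPM) and Fdps (115 against 98.3 CPM). Immediate early genes moved with the tumours, with 5 of 15 higher and 1 lower in Met-1 luminal cells, and the Met-1 class rests on few deep cells. Their part in these differences was not tested, and with 1 library each, tumour and library cannot be told apart.

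In the other classes few genes differed. In macrophages 0 of 25 genes tested were called, against 5.41% of all genes higher in Met-1 and 1.16% lower, and the 35 genes summed to 575 CPM in Met-1 against 677 CPM in PyMT (0.849, 0.796 to 0.908). In T cells 2 of 13 were higher in Met-1 (9.95% of genes higher, 3.36% lower): Dgat1, with 99.3 CPM against 40.3 CPM (2.46, 1.23 to 5.78), and Scd2, with 33.7 CPM against 10.1 CPM from 2 PyMT UMIs (3.35, 0.895 to 28.1). The sterol branch was 242 CPM in Met-1 T cells against 343 CPM in the 34 PyMT T cells (0.707, 0.549 to 0.924). Split by cycling, it was 332 CPM in Met-1 against 468 CPM in PyMT cycling T cells, and 202 against 166 CPM in resting ones. The part of cycling in this difference was not tested. In neutrophils the one gene tested, Dgat2, was lower in Met-1 (57.3 CPM against 168 CPM; 5.38% of genes higher and 18.7% lower). In B cells the 2 genes tested, Scd1 (379 CPM in Met-1 against 312 CPM in PyMT) and Srebf2 (102 CPM against 69.4 CPM), were not called, where 20.7% of genes were higher and 4.62% lower.

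**Figure D5:**
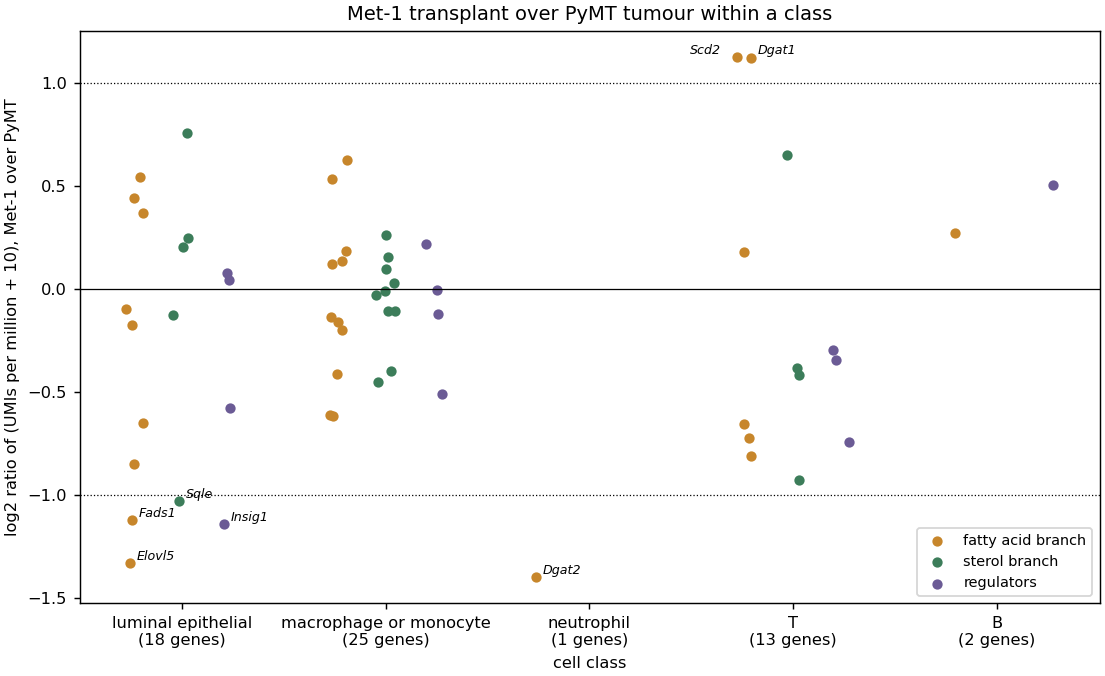
Log2 ratio of (CPM + 10), Met-1 over PyMT, of each gene with at least 50 UMIs on 1 side in 5 cell classes; dotted lines mark 2-fold, and points are coloured by branch. Elovl5, Fads1, Sqle and Insig1 lie below the lower line in luminal epithelial cells, Dgat2 in neutrophils, and Scd2 and Dgat1 lie above the upper line in T cells.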

How the data were processed

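The series holds 2 single-cell RNA libraries, 1 for each tumour, so no test was run and every interval is for counting error. The deposited values are whole-number UMI counts per gene and barcode, which the authors made with Cell Ranger 3.1.0. The submitters' processing notes name the tool and the build mm10. Barcodes were kept with at least 500 UMIs, 200 genes and at most 10% mitochondrial UMIs, and without a doublet call by Scrublet in Scanpy 1.11.5 (23 Met-1 and 1 PyMT calls, out of 339 and 30 barcodes left out). A cell entered one of 13 classes with at least 3 UMIs over at least 2 markers of it, counted over 84 markers in all, and with no second class above 1 in 3 of the first. That left 225 Met-1 and 33 PyMT cells with markers of 2 classes and 78 and 27 with too few in no class.

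Counts were summed per class and library and scaled to 1000000 UMIs (CPM), with exact Poisson intervals, conditional binomial intervals for ratios and Clopper-Pearson intervals for shares (SciPy 1.17.1). UMI counts are not corrected for gene length, so levels are compared within a gene. A limit given for 0 UMIs stands for 3 counts over the class. The genes, gene lists and rules were chosen with earlier results of these data known. Of the 35 genes, those called in both tumours, the 6 highest and 6 lowest between tumours, and the 2 highest and 2 lowest measured of each other list are given with values. Simulated Poisson counts of 31054 genes were drawn from pooled rates. For Met-1 luminal cells against the others, 98 of 100 genes changed 3-fold and 0 of 11607 unchanged genes were called. For Met-1 over PyMT luminal cells it was 94 of 98 and 2 of 3893. The simulation held no variation between cells, so it checks the calling rule and says nothing of calls that lean on few cells. Promoter windows are RefSeq's, and their build GRCm38.p6 was used for these windows alone.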

Additional observations from a re-analysis of the deposited data

How the results depend on the processing

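No paired analysis was possible because the labels carry no replicate numbers and each group is 1 library. The number of genes higher in Met-1 luminal cells, 11 as reported, was 7 with at most 5% mitochondrial UMIs, 7 without the top cell of each gene, 7 with 50 UMIs required on both sides, 6 with 50 CPM added in place of 10, and 4 after thinning to 1000 UMIs per cell. In PyMT luminal cells the number, 7 as reported, was 12 with no limit on a second class, 4 with 50 CPM added and 1 after thinning. Between the tumours, the count of luminal genes higher in Met-1 was 1 in place of 0 with no mitochondrial limit, with 20 UMIs on 1 side and with no minimum of UMIs. The count lower was 0 in place of 4 with a second class limited to 1 in 10, after thinning, with 50 CPM added and with 50 UMIs on both sides. Fewer UMIs remain under thinning and fewer genes under the both-sides rule. Thinning also gives each cell the same weight. The 4 genes lower between the tumours had too few UMIs to be tested after thinning or under the both-sides rule. Their count of 0 there follows from the minimum of UMIs. Beyond this, the cause of these changes was not tested for any setting.

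The log2 sterol ratio of cycling over resting Met-1 macrophages, 0.49 as reported, was 0.32 without the top cell of each gene, 0.14 with the S phase genes and 0.78 with cycling called after thinning. For Met-1 T cells, 0.72 as reported, it was 0.11 thinned and 0.27 with the S phase genes, for Met-1 NK cells 0.34 thinned, and for PyMT luminal cells 1.80 thinned. The fatty acid ratio of Met-1 T cells, 0.48, was -0.24 with the S phase genes. For single genes, 113 differences were recomputed under these settings, giving 1632 values, of which 1401 stayed within their counting interval, 224 moved beyond it and 7 changed sign, all after thinning to 1000 UMIs. Those were Idi1 (-1.10) and Fdft1 (-0.67) in Met-1 luminal cells against all other cells, Elovl6 (-0.50) and Fads1 (0.029) in Met-1 NK cells, Insig2 in Met-1 neutrophils (0.016), Fasn in PyMT macrophages (0.14) and Agpat2 in PyMT T cells (0.19). The cells of at least 5000 UMIs, and the sums without the cell with the most UMIs of the branch, were chosen after seeing the data. Some cycling comparisons fell under 20 cells a side under a stricter class or cycling rule and gave no value there.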
